A study of Xenopus laevis with 12 samples.

Results

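The response described here is the difference between embryos injected with a morpholino against the microRNA miR-196a and embryos injected with a mismatch morpholino, in tissue labelled neural crest from the frog Xenopus laevis at stage 17 of the Nieuwkoop and Faber series, when the neural folds close. It covers every gene of the stage 17 comparison whose mean normalised count was 10 or more. That floor kept 16030 of the 18556 genes in the stage 17 table, and both tables of the series together hold 19252 genes. The lowest mean kept was 10.03 and the highest mean left out was 9.99. Both arms came from wild-type embryos injected at the 4-cell stage, in the right dorsal blastomere, with 60 ng of either oligonucleotide, and each arm had 3 samples. No uninjected embryo was part of the comparison, so both arms share the injection and the oligonucleotide load. Another 6 samples, of the same arms at stage 14, serve below only to show where stage 17 differed. Nothing in the labels says whether the samples of an arm came from separate clutches, so p-values measure the spread between these samples, which may be technical.

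A microRNA guides an Argonaute protein to messenger RNAs that carry a match to its seed, which lowers their stability or translation. A morpholino is an uncharged antisense oligonucleotide analogue that pairs with its target and blocks it. The gene of miR-196a lies within the Hox clusters in vertebrates, and Hox messenger RNAs are among its known targets. At neurula stages the ectoderm holds the neural plate, whose cells are kept immature by SoxB1 and related factors, the neural plate border, from which the neural crest leaves as migratory cells, and the epidermis, which in the frog also bears multiciliated cells, ionocytes and secretory cells. The comparison addresses the effect of blocking miR-196a on the transcripts of these cells.

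Values are those of the authors' deposited table, which gives for each gene a mean normalised count over the 6 samples, a log2 fold change between the arms (called the log2 change below), the standard error of that change (SE) and a DESeq2 p-value adjusted for multiple testing. The table does not say which arm is the numerator of the fold change. Signs are therefore those of the deposited file, and a positive sign stands for more transcript on the numerator side and a negative sign for more on the denominator side. Levels in each arm were computed from the mean and the fold change. Values of single samples were not used here, and depth per library is unknown. Where 1 arm was at 3 normalised counts or fewer, the fold is a lower bound against 3. A gene was called where its adjusted p-value was under 0.05.

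Of 15993 genes tested, 1679 were called, which is 10.5% of them. Positive calls numbered 837 (5.23%) and negative calls 842 (5.26%) in the authors' deposited table. The median log2 fold change was 1.69 over the positive calls and -1.98 over the negative ones, and 0.00081 over all genes tested. The remaining 37 genes of the 16030 had no p-value. The median SE was 0.45. At that SE a log2 fold change had to reach 1.27 in size to be called, and smaller changes of such a gene were not detectable. The median SE was 1.15 in the fifth of genes with the lowest means and 0.27 in the fifth with the highest, so a family of low means had less chance of a call. An arm at 3 normalised counts or fewer was found in 63 positive and 61 negative calls.

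**Figure D1:**
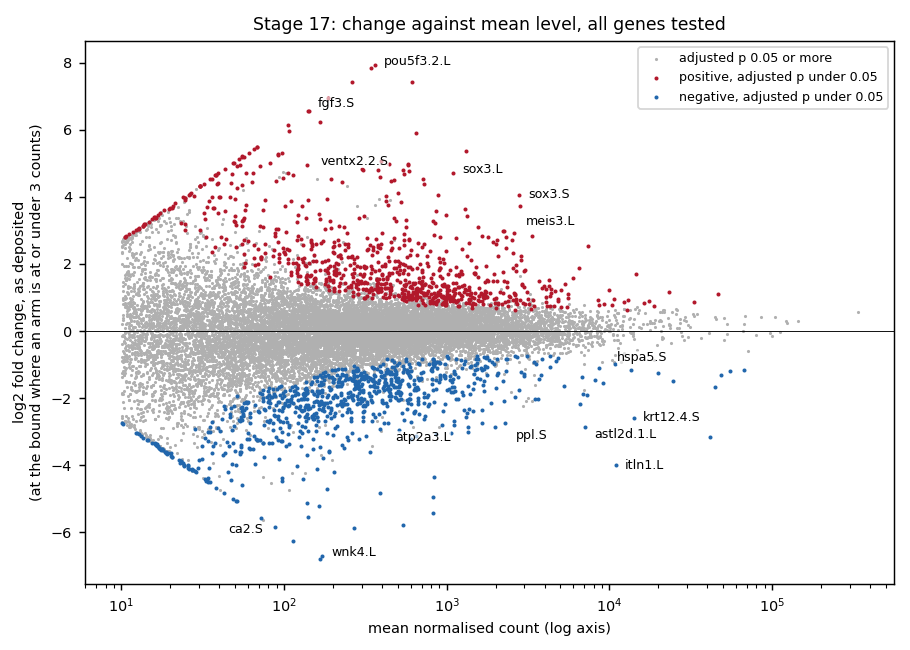
Log2 fold change at stage 17, as deposited, against the mean normalised count on a log axis, with 1 point per gene tested and called genes in colour. The 837 positive and 842 negative calls spread over the whole range of means, and the straight edges at the left are genes drawn at their lower bound.

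The tissue carried the markers of its label. All 14 rows of 7 neural crest markers (snai2, sox8, sox9, sox10, foxd3, twist1 and tfap2b) were at or above the floor, with a summed level of 39496 normalised counts in the numerator arm and 81561 in the denominator arm, and 3 of the 14 were negative calls. Markers of other cell types were present too. The 3 rows of the neural plate markers sox2 and sox3 summed to 9952 normalised counts in the numerator arm and 459 in the denominator arm. The 8 epidermal rows summed to 22512 and 78223, the goblet cell marker to 1302 and 20689.5 (itln1.L, the only row), the 2 ionocyte rows to 30.2 and 311, and the 6 multiciliated rows to 386 and 1180.1. Negative calls were 4 of the epidermal rows, the goblet row, 1 of the ionocyte rows and 1 of the multiciliated rows. The 3 rows of the muscle genes myod1 and actc1 were all below the floor. The 3 rows of notochord markers above the floor held 1 negative call, tbxt.S, at a log2 change of -2.98. The others, not.L and not.S, were not called and had log2 changes above 0. In bulk tissue, fewer cells of a type and less RNA per cell cannot be told apart. The part of these differences in cell type markers in the other results was not tested.

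Among the genes with the lowest p-values, those with positive change were led by factors of early ectoderm. sox3, a SoxB1 factor that keeps neural progenitors undifferentiated, was at 2108 normalised counts in the numerator arm and 81.2 in the denominator arm for its .L copy, a log2 change of 4.70 (adjusted p = 1.84e-34, SE 0.36) by the authors' deposited table. Its .S copy was at 5273 normalised counts in the numerator arm and 315 in the denominator arm, or 4.06 (adjusted p = 6.08e-28, SE 0.35) by the authors' deposited table. pou5f3.2.L, a frog relative of the mammalian pluripotency factor Oct4, was at 725 normalised counts in the numerator arm and at or under 3 in the denominator arm, and was at least 242-fold higher (adjusted p = 2.34e-25, authors' deposited table). The Nodal co-receptor gene tdgf1.3.L was likewise at least 229-fold higher on the numerator side (adjusted p = 4.27e-20, authors' deposited table). Further genes among the 15 positive ones of lowest p were the homeobox genes ventx2.2.S, ventx2.1.S and meis3.L, the zinc finger gene sall2.S, the retinoic acid binding protein gene crabp2.L, the nucleoside kinase gene dck.1.L and pfkfb3.L, whose product makes the allosteric activator of glycolysis. Their log2 fold changes in the authors' deposited table lay between 2.60 and 4.82. tmem221.L was at 979 normalised counts in the numerator arm and 68.4 in the denominator arm by the authors' deposited table, and its role in the embryo is not given here.

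The negative genes at the head of the list had other roles. wnk4.L, a kinase gene that governs ion transport in epithelia, was at 3.24 normalised counts in the numerator arm and 339 in the denominator arm, a log2 change of -6.71 (adjusted p = 6.10e-18, SE 0.71) by the authors' deposited table. Its numerator arm was just above the floor, so that size is less certain. The calcium pump gene atp2a3.L was at 327 normalised counts in the numerator arm and 2359.5 in the denominator arm, or -2.85 (adjusted p = 9.51e-17, SE 0.31) by the authors' deposited table. camk2g.L, which encodes a calcium- and calmodulin-dependent kinase, was at 296 normalised counts in the numerator arm and 2408 in the denominator arm (log2 change -3.02 (adjusted p = 3.76e-13, SE 0.37), authors' deposited table). Both are calcium-handling genes. slc26a4.3.S, an anion exchanger gene, was at least 76.0-fold lower on the numerator side (adjusted p = 3.22e-12, authors' deposited table). astl2d.1.L, an astacin-type protease gene, was the most abundant of the 15 negative genes, at 1730.4 normalised counts in the numerator arm and 12527 in the denominator arm (log2 change -2.86 (adjusted p = 7.53e-12, SE 0.37), authors' deposited table). The others include the protease gene mmp28.L, the periplakin gene ppl.S and the exocytosis genes sytl1.S and sytl2.L.

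**Figure D2:**
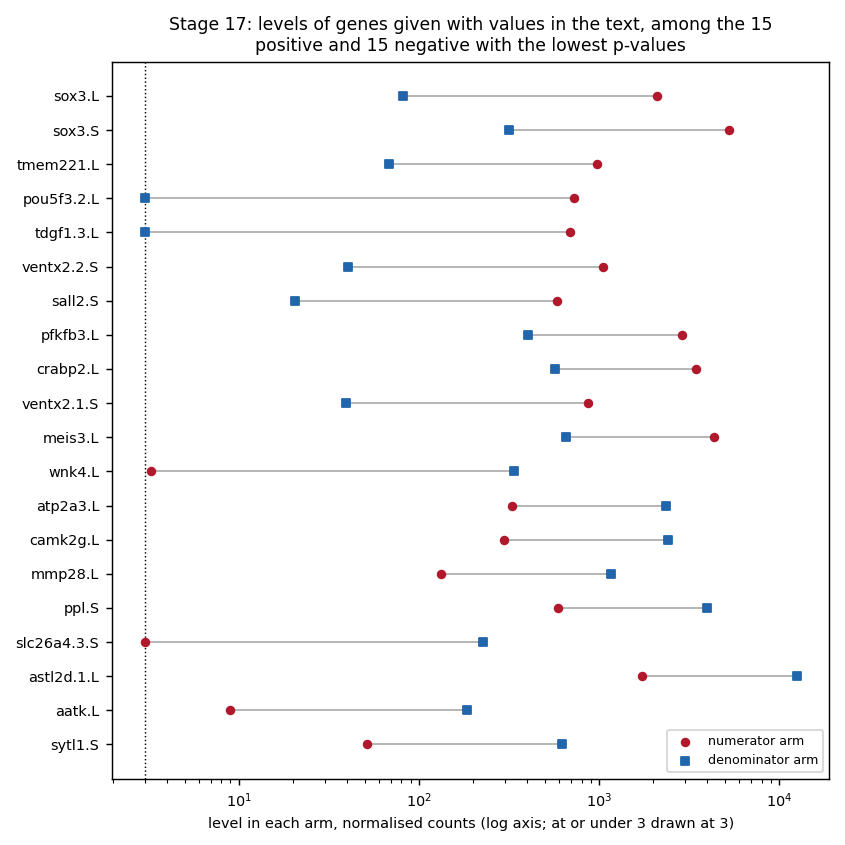
Levels of 11 positive and 9 negative genes, those whose own values are given in the text among the 15 of lowest p-value in each direction, in normalised counts on a log axis, computed for each arm from the deposited mean and fold change; circles stand for the numerator arm and squares for the denominator arm. The arms of sox3.L stand at 2108 normalised counts in the numerator arm and 81.2 in the denominator arm, and pou5f3.2.L, tdgf1.3.L and slc26a4.3.S have 1 arm at the line drawn at 3.

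Genes were grouped into 86 families by symbol, with 3066 members at or above the floor and another 484 below it, which were not counted. Some genes belong to several families, so the same call can count in more than 1 of them. Positive calls alone were found in 36 families, negative calls alone in 18, both in 27 and none in 5. Families with at least 20% of 5 or more members called in 1 direction numbered 38. The families with the highest share of positive calls were transcription factors of the neural plate and early ectoderm, then serine metabolism, genes of signalling and of the oocyte, and histones. Among families of 5 or more tested members, those with the highest share of negative calls were desmosomal genes, keratins, SoxB2 and SoxD factors and the genes of multiciliated cells, followed by the SoxE and AP-2 factors of the neural crest, by paraxial and ventral mesoderm, and by secretory cells and ionocytes. These shares can be read against the 5.23% and 5.26% of all genes called in each direction.

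**Figure D3:**
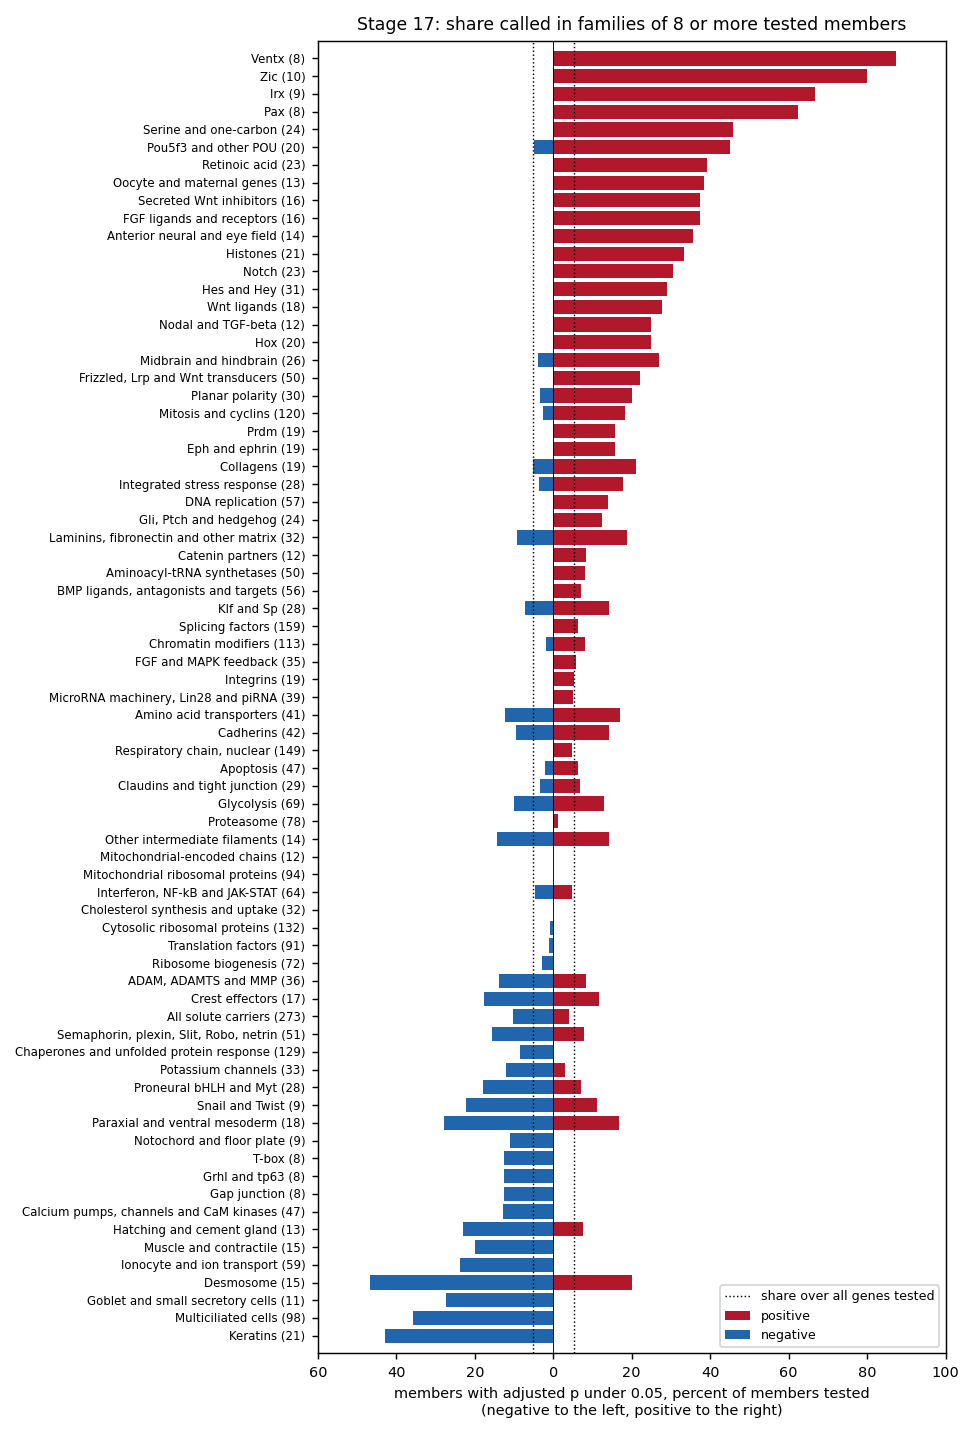
Share of tested members called in families of 8 or more tested members, with 2 such families left out, in percent, positive to the right and negative to the left, with the number tested in brackets; dotted lines mark the shares over all genes tested, 5.23% and 5.26%. Ventx, with 7 of 8 positive, and Zic, with 8 of 10, stand at the top, and keratins, with 9 of 21 negative, at the bottom.

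SoxB1 factors were positive throughout. All 5 rows tested, both copies of sox3 and of sox1 and the .L copy of sox2, were positive calls, with a median log2 fold change of 4.70, or 4.54 with sox1.S at its bound. sox2.L was at 2571 normalised counts in the numerator arm and 62.8 in the denominator arm, a log2 change of 5.35 (adjusted p = 5.11e-07, SE 0.91) by the authors' deposited table. sox1.L was at 103 normalised counts in the numerator arm and 9.95 in the denominator arm, or 3.37 (adjusted p = 0.00443, SE 0.90) by the authors' deposited table. The SoxB2, SoxD, SoxC and SoxF groups were not uniform in this way. Of 5 SoxB2 and SoxD rows, sox21.L was a positive call at 2.65 (adjusted p = 2.50e-06) and both copies of sox5 negative calls, sox5.L at -1.42 (adjusted p = 0.0108) by the authors' deposited table. At an adjusted p of 0.01 the positive call of this group was kept and both negative ones were lost. Of 5 SoxC rows, which act in young neurons, 1 was called, sox11.S at 1.12 (adjusted p = 1.36e-04) by the authors' deposited table. Among 3 SoxF rows there was no call by DESeq2 in either direction, and none had an unadjusted p-value under 0.05; sox7.S, the lowest in p, had a log2 change of -1.08 (adjusted p = 0.297) by the authors' deposited table.

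The Oct4 relatives held positive calls too. Of 20 POU rows, 9 were positive calls and 1 was negative, with a median of 1.91. Besides pou5f3.2.L, pou5f3.2.S was at 1212 normalised counts in the numerator arm and 7.03 in the denominator arm (log2 change 7.43 (adjusted p = 9.97e-10, SE 1.07), authors' deposited table). pou5f3.1.S was at 2426 normalised counts in the numerator arm and 225 in the denominator arm, or 3.43 (adjusted p = 1.16e-12, SE 0.43) by the authors' deposited table. These genes are highest in the blastula and gastrula and hold ectoderm in an uncommitted state. pou3f2.S, which acts in neural progenitors, was at 209.6 normalised counts in the numerator arm and 3.37 in the denominator arm (log2 change 5.96 (adjusted p = 8.48e-10, SE 0.85), authors' deposited table). Its .L copy was not called, at 3.19 (adjusted p = 0.161) by the authors' deposited table. The negative call was pou2f3.S, a factor of epithelial chemosensory cells in mammals, which was at least 16.2-fold lower on the numerator side (adjusted p = 4.85e-04, authors' deposited table).

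Ventx factors, homeobox repressors that act downstream of BMP signals in the gastrula, were positive calls in 7 of 8 rows. The median was 4.58, or 3.53 with 3 rows at their bound. ventx2.2.S was at 1050.3 normalised counts in the numerator arm and 40.7 in the denominator arm (log2 change 4.69 (adjusted p = 3.20e-19, SE 0.48), authors' deposited table). ventx2.1.S was at 866 normalised counts in the numerator arm and 39.2 in the denominator arm, or 4.46 (adjusted p = 4.86e-15, SE 0.51) by the authors' deposited table. Both copies of each ventx2 gene were called. ventx1.1.S and ventx1.2.S, chosen after their values were seen, were at least 11.4-fold higher and at least 10.5-fold higher on the numerator side (adjusted p = 9.31e-04 and 0.00192, authors' deposited table). ventx1.2.L was the row not called, with 35.0 normalised counts in its higher arm and an adjusted p of 0.259 by the authors' deposited table.

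Zic genes encode zinc finger factors of the neural plate and its border. All 10 rows had a positive log2 fold change and 8 were positive calls, with a median of 2.66. zic1.S was at 5209 normalised counts in the numerator arm and 395 in the denominator arm (log2 change 3.72 (adjusted p = 7.11e-13, SE 0.46), authors' deposited table). zic2.S was at 3329 normalised counts in the numerator arm and 527 in the denominator arm, a log2 change of 2.66 (adjusted p = 6.70e-10) by the authors' deposited table. Only the copies of zic4 were not called, and both had positive values of 3.73 and 2.66 (chosen after their values were seen; authors' deposited table).

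Irx factors, which pattern the neural plate along the body axis, were positive calls in 6 of 9 rows, and all 9 rows lay above 0 (median 1.50). irx3.S was at 1585 normalised counts in the numerator arm and 226 in the denominator arm (log2 change 2.81 (adjusted p = 1.39e-10, SE 0.39), authors' deposited table). irx1.S was at 1249 normalised counts in the numerator arm and 386 in the denominator arm, or 1.69 (adjusted p = 6.28e-07, SE 0.29) by the authors' deposited table. Of 8 Pax rows, 5 were positive calls. The other 3 were not called and lay below 0, down to -1.87, with 1 negative at an unadjusted p under 0.05. pax3.S, a factor of the neural plate border, was at 4278 normalised counts in the numerator arm and 1086 in the denominator arm (log2 change 1.98 (adjusted p = 5.85e-06, SE 0.36), authors' deposited table). pax6.S, which specifies eye and forebrain, had a log2 change of 2.17 (adjusted p = 4.22e-04), and pax2.L, of the midbrain-hindbrain boundary, one of 2.45 (adjusted p = 0.00509), both in the authors' deposited table. The border factors of the Msx family gave 2 positive calls in 4 rows, msx1.S at 1.10 (adjusted p = 0.00599) and msx2.L at 1.05 (adjusted p = 0.0140) by the authors' deposited table. Dlx factors of the non-neural ectoderm gave no call by DESeq2 in 7 rows and no unadjusted p-value under 0.05, with a median of -0.27; dlx3.S was at -0.77 (adjusted p = 0.317) by the authors' deposited table.

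Factors that delay neural differentiation in the frog plate were positive as well. foxd4l1.1.S was at least 93.5-fold higher on the numerator side (adjusted p = 4.27e-13) and foxd4l1.1.L was at 103 normalised counts in the numerator arm and 3.36 in the denominator arm, by the authors' deposited table. gmnn.S, the geminin gene, which restrains DNA licensing and commitment, was at 4722 normalised counts in the numerator arm and 998 in the denominator arm (log2 change 2.24 (adjusted p = 3.04e-08, SE 0.35), authors' deposited table). Of 7 rows of foxd4l1, gmnn and zbtb18, 4 were positive calls and none was negative at an adjusted or unadjusted p under 0.05. The forkhead gene foxb1, which marks the neural plate and whose copies were chosen after their values were seen, was positive in both copies, foxb1.L at 4.80 (adjusted p = 1.10e-10) by the authors' deposited table. Of 7 Sall rows, a group chosen after its values were seen, 3 were positive calls. sall2.S was at 584 normalised counts in the numerator arm and 20.6 in the denominator arm (authors' deposited table). Among 14 rows of forebrain and eye field genes, 5 were positive calls. lhx5.S was at least 124.1-fold higher on the numerator side (adjusted p = 3.03e-14, authors' deposited table). fezf2.S was at least 10.9-fold higher there (adjusted p = 0.0341, authors' deposited table), and otx2.L, a head organiser and forebrain factor, had a log2 change of 1.75 (adjusted p = 0.0169, SE 0.54) in that deposited table.

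**Figure D4:**
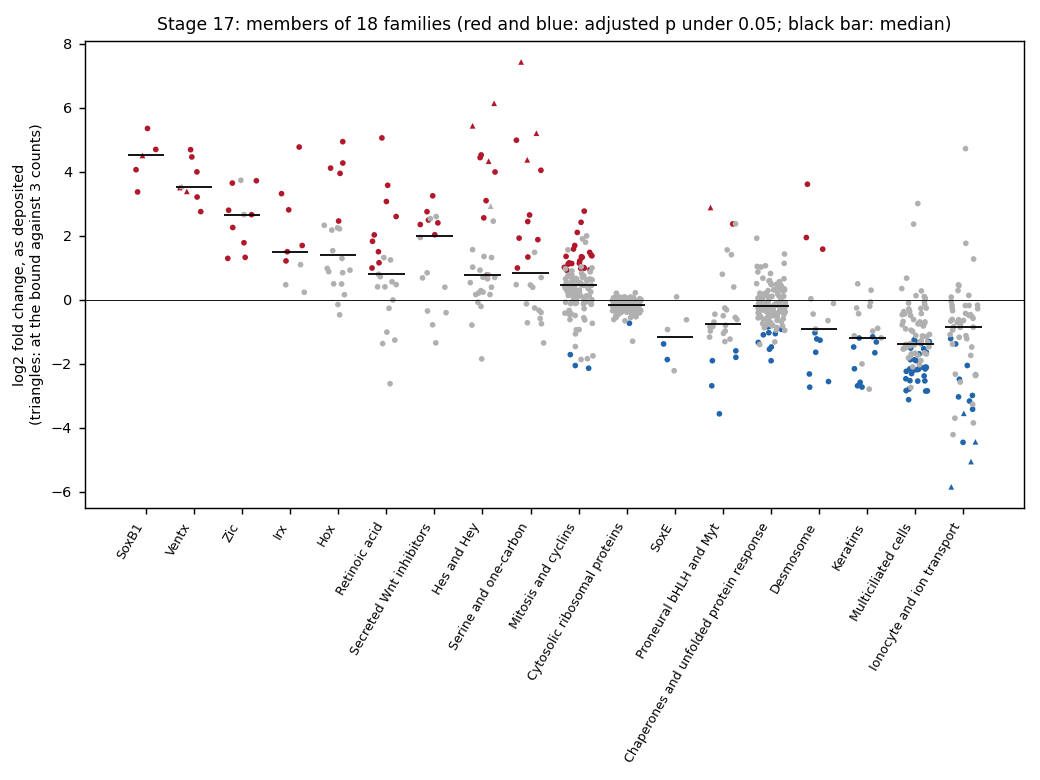
Log2 fold change of every tested member in 18 families, as deposited, with 1 point per gene, calls in colour, triangles at the lower bound and a bar at the median. All SoxB1 rows lie above 0, and cytosolic ribosomal proteins run from -1.30 to 0.22 with a median of -0.15. Keratins, multiciliated and ionocyte genes have no positive call.

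Hox genes, which give positional identity along the neural tube, were present from paralogue group 1 to 6. Of 20 rows, 5 were positive calls, none was negative even at an unadjusted p under 0.05 and 18 lay above 0, with a median of 1.41. hoxd4.L was at 343 normalised counts in the numerator arm and 22.2 in the denominator arm (log2 change 3.95 (adjusted p = 1.82e-12, SE 0.50), authors' deposited table). hoxd1.L was at 1121 normalised counts in the numerator arm and 36.5 in the denominator arm and hoxd1.S at 946 normalised counts in the numerator arm and 54.6 in the denominator arm, by the authors' deposited table. Both copies of hoxd1 were called, with adjusted p-values of 5.77e-04 and 2.47e-12 by the authors' deposited table. hoxb4.S was at 97.3 normalised counts in the numerator arm and 5.03 in the denominator arm (log2 change 4.27 (adjusted p = 5.89e-04, SE 0.99), authors' deposited table). The Hox cofactor meis3.L, which specifies hindbrain in the frog, was at 4359 normalised counts in the numerator arm and 659.7 in the denominator arm, a log2 change of 2.72 (adjusted p = 1.23e-14, SE 0.32) by the authors' deposited table.

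Retinoic acid is the signal that turns on anterior Hox genes in the hindbrain. Of 23 rows of its pathway, 9 were positive calls and none was negative by DESeq2, with 1 negative at an unadjusted p under 0.05. The calls included a carrier, catabolic enzymes and receptors. crabp2.L, the carrier, was at 3455 normalised counts in the numerator arm and 570.0 in the denominator arm (log2 change 2.60 (adjusted p = 1.26e-15, SE 0.29), authors' deposited table). dhrs3.L, whose product removes the precursor retinaldehyde, was at 769 normalised counts in the numerator arm and 23.1 in the denominator arm, or 5.06 (adjusted p = 1.55e-14, SE 0.59) by the authors' deposited table. cyp26a1.S, whose product degrades retinoic acid, was at 1592 normalised counts in the numerator arm and 133 in the denominator arm (log2 change 3.58 (adjusted p = 1.25e-11, SE 0.47), authors' deposited table). Both copies of crabp2, dhrs3 and cyp26a1 were called. Of the receptors, rara.S and rarg.S, chosen after their values were seen, had log2 changes of 1.50 (adjusted p = 8.39e-04) and 1.15 (adjusted p = 0.00642) by the authors' deposited table. aldh1a2.L, which makes retinoic acid and was also chosen after its value was seen, was not called at -1.38 (adjusted p = 0.203) by the authors' deposited table. Its .S copy, chosen in the same way, had a log2 change of the opposite sign and was not called either.

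Of 26 rows of midbrain and hindbrain genes, 7 were positive calls and 1 was negative. fgf8.S, the organising signal of the midbrain-hindbrain boundary, was at 113 normalised counts in the numerator arm and 4.35 in the denominator arm (log2 change 4.70 (adjusted p = 7.73e-06, SE 0.88), authors' deposited table). The negative call was gbx1.S at -1.38 (adjusted p = 0.0225) by the authors' deposited table.

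Ligands, receptors and inhibitors of Wnt signalling, which sets the posterior neural plate and induces the crest, gave positive calls only. Of 18 ligand rows 5 were positive calls (median 1.45), and no ligand or inhibitor row was negative at an unadjusted p under 0.05. wnt4.L was at 530.1 normalised counts in the numerator arm and 51.4 in the denominator arm (log2 change 3.37 (adjusted p = 1.78e-09, SE 0.49), authors' deposited table). wnt8a.L, the early posteriorising ligand, was at 671 normalised counts in the numerator arm and 168 in the denominator arm, or 2.0 (adjusted p = 0.00398, SE 0.53) by the authors' deposited table. Of 50 rows of receptors and transducers, 11 were positive calls, with none negative and 1 negative at an unadjusted p under 0.05. The receptor gene fzd10.L was at 1087 normalised counts in the numerator arm and 273 in the denominator arm (log2 change 2.0 (adjusted p = 3.98e-06, SE 0.36), authors' deposited table), and both copies were called. axin2.L, a feedback inhibitor and readout of the pathway, was at 5483 normalised counts in the numerator arm and 2232 in the denominator arm, or 1.30 (adjusted p = 1.12e-04, SE 0.27) by the authors' deposited table. Of 16 rows of secreted Wnt inhibitors and their receptors, 6 were positive calls (median 1.99). notum.S, whose product strips Wnts of their lipid, was at 1011 normalised counts in the numerator arm and 191 in the denominator arm (log2 change 2.40 (adjusted p = 4.59e-11, SE 0.32), authors' deposited table). sfrp2.L, which binds Wnts outside the cell, was at 641 normalised counts in the numerator arm and 95.2 in the denominator arm, or 2.75 (adjusted p = 6.71e-05, SE 0.57) by the authors' deposited table. The called agonists and antagonists thus had the same sign.

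FGF ligands and receptors, which act in neural induction and in the posterior plate, gave 6 positive calls in 16 rows and none negative at an adjusted or unadjusted p under 0.05. fgf3.S was at least 94.4-fold higher on the numerator side (adjusted p = 5.95e-13) and fgf3.L was at 138.4 normalised counts in the numerator arm and 4.61 in the denominator arm, by the authors' deposited table. The receptor gene fgfr4.L had a log2 change of 1.26 (adjusted p = 1.09e-04) by the authors' deposited table. Feedback inhibitors of the FGF and MAPK cascade gave 2 positive calls in 35 rows (5.71%), near the 5.23% of all genes tested. These were dusp5.L at 1.82 (adjusted p = 1.96e-04) and il17rd.S at 1.32 (adjusted p = 0.0414) by the authors' deposited table. Of 56 rows of BMP ligands, antagonists and targets, 4 were positive calls (7.14%), little above the 5.23% of all genes tested. admp.L, a BMP ligand of the organiser, was at least 32.2-fold higher on the numerator side (adjusted p = 8.35e-06, authors' deposited table). The other calls were the ligand gene gdf10.L, the extracellular modulator twsg1.S and the receptor gene bmpr1b.L. Of 12 Nodal and TGF-beta rows 3 were positive calls, tdgf1.3.L, tdgf1.1.L and ltbp1.S. For hedgehog signalling, 3 of 24 rows were positive calls, led by the transcriptional effector gli3.L at 1.69 (adjusted p = 1.26e-04) by the authors' deposited table.

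Notch signalling, which keeps neighbours of a differentiating cell in the progenitor state, gave 7 positive calls in 23 rows and none negative at an adjusted or unadjusted p under 0.05. lfng.L, a glycosyltransferase that modifies the receptor, was at 779 normalised counts in the numerator arm and 182 in the denominator arm (log2 change 2.10 (adjusted p = 2.09e-09, SE 0.31), authors' deposited table). notch1.S, a receptor gene, had a log2 change of 1.32 (adjusted p = 2.07e-05), and the target nrarp.S one of 1.30 (adjusted p = 1.87e-05), in the authors' deposited table. Among the Hes and Hey repressors, the main Notch targets, 9 of 31 rows were positive calls and 27 lay above 0. hes7.1.L was at 1364 normalised counts in the numerator arm and 59.2 in the denominator arm (log2 change 4.53 (adjusted p = 1.70e-12, SE 0.57), authors' deposited table). hes3.L was at least 70.6-fold higher on the numerator side (adjusted p = 3.28e-10, authors' deposited table). hes1.L was at 416 normalised counts in the numerator arm and 48.7 in the denominator arm, or 3.10 (adjusted p = 3.43e-12, SE 0.40) by the authors' deposited table.

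Genes that drive differentiation of neurons had more negative than positive calls. Of 28 rows of proneural factors and their targets, 5 were negative (17.9%) and 2 positive (7.14%) calls, against 5.26% and 5.23% of all genes tested. neurod1.S was at 81.3 normalised counts in the numerator arm and 526 in the denominator arm (log2 change -2.69 (adjusted p = 3.42e-04, SE 0.60), authors' deposited table). neurod4.L was at 231 normalised counts in the numerator arm and 700.3 in the denominator arm, or -1.60 (adjusted p = 1.35e-04, SE 0.34) by the authors' deposited table. Both copies of both genes were negative calls. The positive calls were neurog3.S, which was at least 7.40-fold higher on the numerator side (adjusted p = 0.0112), and ascl2.S, at a log2 change of 2.37 (adjusted p = 0.0414), in the authors' deposited table.

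Neural crest factors, in 4 families, had negative calls in 17.6% to 33.3% of a family's rows, against 5.26% of all genes tested, and their positive calls were zeb2.S and both copies of prdm1. Among 6 SoxE rows, 2 were called, both copies of sox10, which specifies migratory crest and glia. sox10.L was at 2967 normalised counts in the numerator arm and 10869.7 in the denominator arm (log2 change -1.87 (adjusted p = 3.28e-04, SE 0.42), authors' deposited table). sox10.S was at 3778 normalised counts in the numerator arm and 9864 in the denominator arm, or -1.38 (adjusted p = 0.0284, SE 0.45) by the authors' deposited table. The other 4 rows, copies of sox8 and sox9, did not pass the test. Of all 6 rows, 1 lay above 0 and 3 had a log2 change under 1 in size. The most negative of the 6 was sox8.S, at -2.22 (adjusted p = 0.0762, SE 0.85) by the authors' deposited table (chosen after its value was seen). snai2.S, a repressor of the crest's epithelial state, was at 298 normalised counts in the numerator arm and 1002 in the denominator arm (log2 change -1.75 (adjusted p = 0.00869, SE 0.50)), while the far more abundant snai2.L was not called at -0.92 (adjusted p = 0.187, SE 0.43), in the authors' deposited table. Of 7 AP-2 rows 2 were negative calls, both copies of tfap2e, with tfap2e.S at -1.70 (adjusted p = 0.00420) by the authors' deposited table; the crest and border gene tfap2a.S, chosen after its value was seen, was not called at -0.54 (adjusted p = 0.135). Of 9 Snail, Twist and Zeb rows 2 were negative calls and 1 positive, zeb2.S at 1.80 (adjusted p = 6.43e-05) by the authors' deposited table. The SEs of the sox8, foxd3, twist1 and tfap2b rows lay between 0.76 and 1.03, against a median of 0.27 in the fifth of highest means. These abundant rows thus had less chance of a call than most rows of like mean.

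Other crest effectors were split. Of 17 rows 2 were positive calls, both copies of prdm1, and 3 negative; at an adjusted p of 0.01 the positive calls outnumbered the negative ones. mitf.S, the master regulator of pigment cells, was at least 12.42-fold lower on the numerator side (adjusted p = 0.0130, authors' deposited table). Other pigment genes had calls of the opposite sign: of 9 pigment rows, 4 were positive calls, among them pmel.S of the melanosome matrix at 2.98 (adjusted p = 2.96e-12) and tyrp1.L of melanin synthesis at 2.03 (adjusted p = 0.0149) by the authors' deposited table. That list was chosen after its values were seen.

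Guidance genes steer crest cells and axons. Of 51 semaphorin, plexin, Slit, Robo and netrin rows, 8 were negative and 4 positive calls. The semaphorin co-receptor nrp2.S was at 306 normalised counts in the numerator arm and 1584 in the denominator arm (log2 change -2.37 (adjusted p = 1.05e-05, SE 0.45), authors' deposited table), and both its copies and both of plxna2, its partner, were negative calls. ntn1.L, a netrin, had a log2 change of -2.43 (adjusted p = 2.43e-05) by the authors' deposited table. The positive call of lowest p, ntn3.L, was at least 20.1-fold higher on the numerator side (adjusted p = 3.70e-05, authors' deposited table). Eph receptors and ephrins gave 3 positive calls in 19 rows and no negative call by DESeq2, with 1 negative at an unadjusted p under 0.05. ephb3.L was at 1.94 (adjusted p = 4.71e-06) by the authors' deposited table. Planar polarity genes, needed to close the neural tube, gave 6 positive calls and 1 negative in 30 rows. vangl2.L had a log2 change of 0.85 (adjusted p = 0.00788) and vangl1.S one of -1.32 (adjusted p = 0.0450) by the authors' deposited table.

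Epidermal genes were among the most abundant with negative change. Of 21 keratin rows 9 were negative calls and none was positive at any adjusted or unadjusted p under 0.05, with a median log2 fold change of -1.20. krt12.4.S, a larval epidermal keratin, was at 4021 normalised counts in the numerator arm and 24128 in the denominator arm (log2 change -2.59 (adjusted p = 4.40e-08, SE 0.41), authors' deposited table). krt8.2.S was at 107 normalised counts in the numerator arm and 714 in the denominator arm, or -2.73 (adjusted p = 1.55e-05, SE 0.53) by the authors' deposited table. grhl3.S, the epidermal grainyhead factor, was at 852 normalised counts in the numerator arm and 3624 in the denominator arm (log2 change -2.09 (adjusted p = 1.38e-04, SE 0.45)), and tp63.S, chosen after its value was seen, was not called at -0.69 (adjusted p = 0.434, SE 0.47), in the authors' deposited table. The other copy of grhl3, grhl3.L, also lay below 0 but was not called. gata2.S, a factor of ventral ectoderm, was a negative call at -1.78 (adjusted p = 0.00577) by the authors' deposited table.

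Desmosomes hold epithelial cells together. Of 15 rows 7 were negative and 3 positive calls. ppl.S, periplakin of the cornified envelope, was at 594 normalised counts in the numerator arm and 3955 in the denominator arm (log2 change -2.74 (adjusted p = 1.01e-12, SE 0.34), authors' deposited table). evpl.L, envoplakin, had a log2 change of -2.56 (adjusted p = 0.00153) and dsp.L, desmoplakin, one of -1.64 (adjusted p = 3.23e-04), in the authors' deposited table. The positive calls were pkp3.L, dsg2.S and dsc3.S; for pkp3 and dsg2 the other copy was a negative call. Gap junction genes gave 1 negative call in 8 rows, gjb1.L at -2.71 (adjusted p = 0.0197) by the authors' deposited table. Claudins and tight junction genes gave 2 positive (6.90%) and 1 negative (3.45%) calls in 29 rows, against 5.23% and 5.26% of all genes tested. Of these, cldn6.1.L was at 2.88 (adjusted p = 4.45e-05) by the authors' deposited table.

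Multiciliated cells beat the larval skin's mucus with motile cilia. Of 98 rows of their genes 35 were negative calls and none was positive, with 1 positive at an unadjusted p under 0.05. Values below 0 were found in 90 of the 98 rows, and the median was -1.40. Most of the calls lay in the motor and the axoneme. Of 18 axonemal dynein rows 12 were called (median -2.14), of 7 tektin rows 5, of 8 radial spoke and nexin-dynein rows 5, and of 27 cilia and flagella associated rows 8, all negative. None of the rows in these divisions was positive at an unadjusted p under 0.05. dnah12.L was at 108 normalised counts in the numerator arm and 601 in the denominator arm (log2 change -2.47 (adjusted p = 1.83e-06, SE 0.44), authors' deposited table). dnah1.L was at 65.2 normalised counts in the numerator arm and 569.9 in the denominator arm, or -3.13 (adjusted p = 2.51e-05, SE 0.61) by the authors' deposited table. Intraflagellar transport genes, which all ciliated cells use, gave 2 calls in 17 rows (median -0.75). The regulators of the cell type, such as foxj1 and ccno, gave no call by DESeq2 in 13 rows, 3 negative and 1 positive at an unadjusted p under 0.05, and a median of -0.91. foxj1.L, with a mean of 80.1 normalised counts, had a log2 change of -1.91 (adjusted p = 0.164, SE 0.86) by the authors' deposited table (chosen after its value was seen). These divisions of the list were chosen after its values were seen.

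Ionocytes move acid and salts across the larval skin. Of 59 rows 14 were negative calls and none was positive, with 1 positive at an unadjusted p under 0.05. The ionocyte factor foxi1.L, chosen after its value was seen, was at 17.5 normalised counts in the numerator arm and 188 in the denominator arm (log2 change -3.43 (adjusted p = 6.38e-05, SE 0.70), authors' deposited table). Its .S copy, chosen in the same way, also lay below 0 but was not called. ca2.S, a carbonic anhydrase, was at least 57.9-fold lower on the numerator side (adjusted p = 2.34e-08), and ca2.L was at 39.7 normalised counts in the numerator arm and 326 in the denominator arm, by the authors' deposited table. Proton pump subunits, a list chosen after its values were seen, gave 7 negative calls in 32 rows. The ionocyte subunit atp6v1g3.S was at least 33.5-fold lower on the numerator side (adjusted p = 3.88e-08) and atp6v1g3.L was at 8.45 normalised counts in the numerator arm and 186 in the denominator arm, by the authors' deposited table. Anion exchangers of the slc4 and slc26 groups, also listed after their values were seen, gave 6 negative calls in 19 rows.

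Goblet and small secretory cells supply mucus and defence proteins. Of 11 rows 3 were negative calls. itln1.L, an intelectin and the main goblet product, was at 1302 normalised counts in the numerator arm and 20689 in the denominator arm (log2 change -3.99 (adjusted p = 0.00180, SE 0.99), authors' deposited table). otog.L, which encodes the mucin-like otogelin, was at 23.6 normalised counts in the numerator arm and 322 in the denominator arm, or -3.77 (adjusted p = 1.12e-04, SE 0.80) by the authors' deposited table. Other families that were singled out after their values were seen had negative calls too. Of 12 synaptotagmin-like rows, effectors of Rab27 in exocytosis, 7 were negative calls (median -2.36). sytl1.S was at 51.6 normalised counts in the numerator arm and 622 in the denominator arm (log2 change -3.59 (adjusted p = 4.26e-11, SE 0.48), authors' deposited table). Transferases that start mucin-type glycosylation gave 7 negative calls and 1 positive in 18 rows, calpain proteases 6 and 1 in 20, myosins 7 negative and none positive in 20, and annexins 4 negative and none positive in 18. At an unadjusted p under 0.05, 1 myosin row and 0 annexin rows were positive.

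Calcium pumps, channels and kinases gave 6 negative calls in 47 rows and no positive call, with 1 positive at an unadjusted p under 0.05. Both copies of the pump gene atp2a3 were called, atp2a3.S at -2.13 (adjusted p = 0.0372) by the authors' deposited table. The secretory pathway pump atp2c2.L had a log2 change of -1.80 (adjusted p = 0.0249) by the authors' deposited table. Potassium channels gave 4 negative calls and 1 positive in 33 rows, kcnj13.S at -3.51 (adjusted p = 7.74e-06) and kcnk5.S at 3.58 (adjusted p = 0.00320) by the authors' deposited table. Of all 273 solute carrier rows 28 were negative (10.3%) and 11 positive calls (4.03%), against 5.26% and 5.23% of all genes tested.

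Genes of cell division leaned to the positive side. Of 120 rows of mitosis and cyclin genes 22 were positive and 3 negative calls, with a median of 0.45. Mitotic cyclins and cdc25, split off after their values were seen, gave 10 calls in 16 rows, all positive. cdc25b.L, the phosphatase that starts mitosis, was at 1979.7 normalised counts in the numerator arm and 290.4 in the denominator arm (log2 change 2.77 (adjusted p = 1.93e-08, SE 0.43), authors' deposited table). ccna2.L, cyclin A of dividing somatic cells, was at 4646 normalised counts in the numerator arm and 1082 in the denominator arm, or 2.10 (adjusted p = 1.29e-05, SE 0.40) by the authors' deposited table. The negative calls were both copies of kif26a, an atypical kinesin, and ccna1.L, the cyclin A of eggs and early embryos. Of 57 DNA replication rows 8 were positive calls, 49 lay above 0 and none was negative at an unadjusted p under 0.05. rrm1.L, a subunit of ribonucleotide reductase, was at 1423 normalised counts in the numerator arm and 388 in the denominator arm (log2 change 1.88 (adjusted p = 1.94e-08, SE 0.29)), and pcna.L, the polymerase clamp, had 1.53 (adjusted p = 2.32e-05), in the authors' deposited table.

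Families of chromatin and RNA processing had more positive than negative calls, to be read against 5.23% positive and 5.26% negative over all genes tested. Splicing genes (6.29% positive) and the microRNA machinery (5.13%) were near the share of all genes, and chromatin modifiers (7.96%) little above it. Histone genes gave 7 positive calls in 21 rows. Of 113 chromatin modifier rows 9 were positive and 2 negative calls; dnmt1.L, the maintenance DNA methyltransferase, had a log2 change of 0.92 (adjusted p = 0.0306) by the authors' deposited table. Of 159 splicing rows 10 were positive calls and none was negative by DESeq2, with 4 negative at an unadjusted p under 0.05, while 133 lay above 0, with a median of 0.32. rbm46.L, a germ cell RNA binding protein, stood apart at 4.45 (adjusted p = 3.44e-05, SE 0.89) by the authors' deposited table. Genes of the egg coat and of the oocyte gave 5 positive calls in 13 rows, zp4.S at 2.28 (adjusted p = 4.99e-05) by the authors' deposited table. Genes of the microRNA machinery gave 2 positive calls in 39 rows, mov10l1.L of the piRNA pathway at 2.92 (adjusted p = 3.48e-04) and tarbp2.S, a Dicer partner, at 0.91 (adjusted p = 0.0466) by the authors' deposited table.

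Serine synthesis and one-carbon metabolism had one of the highest shares of calls outside the transcription factors, 11 positive of 24 rows. None was a negative call, and 2 were negative at an unadjusted p under 0.05. phgdh.L, the first enzyme of serine synthesis, was at least 36.9-fold higher on the numerator side (adjusted p = 9.33e-07) and phgdh.S was at 348 normalised counts in the numerator arm and 55.5 in the denominator arm, by the authors' deposited table. psat1.L, the second enzyme, was at 1655 normalised counts in the numerator arm and 100.2 in the denominator arm (log2 change 4.05 (adjusted p = 2.62e-13, SE 0.50), authors' deposited table). psph.S, the third, was at 2104 normalised counts in the numerator arm and 387 in the denominator arm, or 2.44 (adjusted p = 1.93e-05, SE 0.47) by the authors' deposited table. All steps of the pathway thus held a call.

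Genes of the integrated stress response, which includes serine enzymes among its targets, gave 5 positive calls and 1 negative in 28 rows. ddit3.L, the transcription factor CHOP, was at 751 normalised counts in the numerator arm and 31.2 in the denominator arm (log2 change 4.59 (adjusted p = 3.75e-09, SE 0.68), authors' deposited table). chac1.L, a glutathione-degrading target, was at 1274 normalised counts in the numerator arm and 21.5 in the denominator arm, or 5.89 (adjusted p = 0.0144, SE 1.77) by the authors' deposited table. Of 50 tRNA synthetase rows 4 were positive calls, or 8% against 5.23% of all genes tested. Among them was mars1.S at 3.30 (adjusted p = 9.12e-08) by the authors' deposited table. Chaperones of the endoplasmic reticulum went the other way. Of 31 rows of the endoplasmic reticulum lumen 9 were negative calls, against none of 32 cytosolic rows, where no unadjusted p was under 0.05 either; the division was made after the values were seen. hspa5.L, the chaperone BiP, was at 3059 normalised counts in the numerator arm and 11489.7 in the denominator arm (log2 change -1.91 (adjusted p = 3.71e-06, SE 0.35), authors' deposited table), and hspa5.S, hsp90b1 in both copies and calr.S were negative calls as well. Whether these 2 groups differ from each other was not tested.

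Transport and sugar use were split. Amino acid transporters gave 7 positive and 5 negative calls in 41 rows. slc7a3.L, a cationic amino acid transporter, was at 4556 normalised counts in the numerator arm and 605 in the denominator arm (log2 change 2.91 (adjusted p = 3.81e-11, SE 0.39), authors' deposited table), and slc1a3.L, a glutamate transporter, was at 21.7 normalised counts in the numerator arm and 233 in the denominator arm, or -3.43 (adjusted p = 4.12e-06, SE 0.62) in that deposited table. Genes of glucose uptake and glycolysis gave 9 positive and 7 negative calls in 69 rows. pfkfb3.L was at 2904 normalised counts in the numerator arm and 406 in the denominator arm (log2 change 2.84 (adjusted p = 6.02e-17, SE 0.31), authors' deposited table). pkm.L, the last enzyme, had 1.81 (adjusted p = 5.27e-05) by the authors' deposited table. The negative calls included the glucose carrier slc2a12.L, at -2.84 (adjusted p = 8.91e-07), and hk1.L, the first enzyme, at -1.98 (adjusted p = 0.00322), in the authors' deposited table.

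The large housekeeping families held few calls. Cytosolic ribosomal proteins gave 1 call in 132 rows, rps9 at -0.74 (adjusted p = 0.0258) by the authors' deposited table; 8 were negative and none positive at an unadjusted p under 0.05. Mitochondrial ribosomal proteins gave none by DESeq2 in 94 rows, with 3 positive and 3 negative at an unadjusted p under 0.05. Genes of cholesterol synthesis gave none in 32 rows, with 2 positive and 1 negative at that p. The 12 rows encoded by the mitochondrial genome gave none and had no unadjusted p under 0.05; their median was 0.18, with COX1 at 0.58 (adjusted p = 0.242) by the authors' deposited table. Translation factors gave 1 negative call in 91 rows, ribosome biogenesis genes 2 negative in 72, and proteasome genes 1 positive in 78. Nuclear genes of the respiratory chain gave 7 positive calls in 149 rows, a share near that of all genes.

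Adhesion and matrix genes had calls on both sides, to be read against 5.23% positive and 5.26% negative over all genes tested. Cadherins and protocadherins gave 6 positive (14.3%) and 4 negative (9.52%) calls in 42 rows. With homeologs combined, negative genes outnumbered positive ones. pcdh8.S, a protocadherin of gastrulation movements, was at 304 normalised counts in the numerator arm and 30.3 in the denominator arm (log2 change 3.33 (adjusted p = 1.15e-04, SE 0.70), authors' deposited table). Collagens gave 4 positive (21.1%) and 1 negative (5.26%) calls in 19 rows, the negative share being near that of all genes tested. col4a6.L, of basement membranes, had a log2 change of 2.22 (adjusted p = 2.10e-05) and col1a2.L, of fibrous collagen, one of -2.22 (adjusted p = 0.0303), in the authors' deposited table. Laminins, fibronectin and other matrix genes gave 6 positive (18.8%) and 3 negative (9.38%) calls in 32 rows. The proteoglycan gene vcan.L, whose product confines crest migration, had a log2 change of 1.57 (adjusted p = 3.20e-06, SE 0.28) by the authors' deposited table. ADAM, ADAMTS and MMP proteases gave 3 positive (8.33%) and 5 negative (13.9%) calls in 36 rows. Among the negative ones, mmp28.L was at 133.5 normalised counts in the numerator arm and 1164 in the denominator arm by the authors' deposited table. Integrins gave 1 positive call in 19 rows (5.26%), near the 5.23% of all genes tested. It was itga6.L at 0.99 (adjusted p = 0.0389) by the authors' deposited table.

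Genes of blood and mesoderm were few. Globins, products of blood, gave the calls hba1.L and hbg1.L, at least 10.2-fold lower and at least 32.0-fold lower on the numerator side (adjusted p = 9.74e-04 and 7.64e-05, authors' deposited table). tcf15.L, a factor of somite mesoderm, was at least 16.0-fold higher there (adjusted p = 1.40e-04, authors' deposited table). Muscle and contractile genes gave 3 negative calls in 15 rows, all of them mef2 factors, with mef2c.L at -2.69 (adjusted p = 7.14e-05) by the authors' deposited table.

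Grouping by the letters that open a symbol, with no list behind it, gave 235 groups of 10 or more genes. The highest shares of positive calls were in zic, with 8 of 10, pou, with 9 of 20, lmo, with 4 of 11, hes, with 9 of 29, and h, mostly histones, with 7 of 23. lmo4.2 encodes a LIM-only transcriptional cofactor. Its .S copy, chosen after its value was seen, was at 1001 normalised counts in the numerator arm and 117 in the denominator arm (log2 change 3.10 (adjusted p = 1.92e-09, SE 0.45), authors' deposited table). The highest shares of negative calls were in krt, with 9 of 21, galnt, with 7 of 18, myo, with 7 of 20, spata, with 4 of 13, and capn, with 6 of 20. Of the 4 spata calls, 3 were copies of spata18, a gene of mitochondrial quality control.

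Xenopus laevis is allotetraploid and carries most genes as an .L and an .S copy, called homeologs, which give a repeat of a kind within the same libraries. Reads of near-identical copies can be assigned to the wrong one, which the deposited values do not show, and the libraries were unstranded, so overlapping and antisense genes are less certain. Both copies were tested for 4999 genes. Their log2 fold changes had the same sign in 68.6% of the pairs, with a Spearman correlation of 0.47 across pairs, which share libraries and some reads. Where both copies were called, 204 of 210 pairs had the same sign. Where 1 copy was called, the other had the same sign in 534 of 658 pairs (81.2%). The share of rows called was 10.9% for .L and 9.99% for .S copies.

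In 6 pairs both copies were called with opposite sign. They were aatk, cd81, dennd2a, dsg2, pkp3 and prdx6. For aatk, a kinase gene, the .L copy was at 8.92 normalised counts in the numerator arm and 185 in the denominator arm and the .S copy at 258 normalised counts in the numerator arm and 73.3 in the denominator arm, with log2 changes of -4.38 and 1.82 (adjusted p = 8.93e-12 and 0.00387) by the authors' deposited table. For dsg2, a desmosomal cadherin, the .L copy had -1.03 (adjusted p = 0.0232, SE 0.33) and the .S copy 3.61 (adjusted p = 0.00354, SE 0.95) by the authors' deposited table. For pkp3, a desmosomal plaque protein, the copies were of like abundance and had 1.58 (adjusted p = 2.70e-04, SE 0.35) and -1.27 (adjusted p = 0.0138, SE 0.38) by the authors' deposited table. How far a copy's sequence lets its reads be assigned was not tested.

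**Figure D5:**
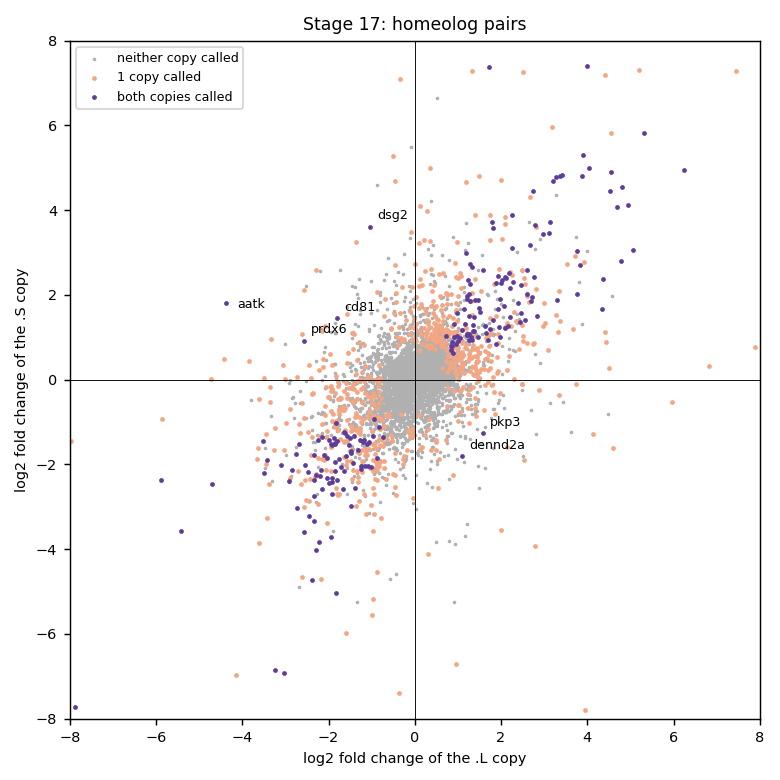
Log2 fold change at stage 17 of the .S copy against that of the .L copy for genes with both copies tested, as deposited, with 1 point per pair and colour by the number of copies called. Of 4999 pairs 12 lie beyond the axes, 204 of the 210 pairs with both copies called lie in the lower left or upper right, and the 6 others are named.

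Stage 17 was set against stage 14 only by a test of the difference of log2 fold changes, in 15790 genes with a p-value at both stages. The stages have no samples in common, but the batch label repeats the stage, so batch and stage cannot be told apart. The difference was called in 242 genes (1.53%). It was more positive at stage 17 in 209 (1.32%) and more negative in 33 (0.209%). Zic genes were more positive at stage 17 in 6 of 10 rows, with a median of -0.014 at stage 14. For zic1.S, the log2 fold change at stage 17 minus that at stage 14 was 3.10 (SE 0.54, adjusted p = 8.54e-06, normal test with Benjamini-Hochberg adjustment). Msx genes were more positive in 4 of 4, POU genes in 7 of 20, Hox genes in 6 of 20, retinoic acid genes in 7 of 23, and FGF ligands and receptors in 5 of 15. The totals are rows present at both stages, of which a few may lack a p-value at stage 14. Among the Hox rows, hoxd4.L was not tested for the difference. SoxB1 rows were more positive in 3 of 5; for sox3.L the difference was 3.92 (SE 0.54, adjusted p = 1.98e-09, normal test with Benjamini-Hochberg adjustment). Of the serine genes 1 was more positive at stage 17, of the keratins 1 and of the multiciliated genes 2, and no row of these families was more negative by that test. In 5 of 12 mitochondrial-encoded rows the difference was below 0. The median of the 12 rows was 0.18 at stage 17 and 1.79 at stage 14, where 11 were positive calls.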

How the data were processed

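RNA sequencing libraries were unstranded, per the labels' protocols, and STAR 2.7.3a and DESeq2 are named in the submitters' processing notes. Genome build, annotation and filters are not given in the sources used here. The authors deposited, per the file headers, a mean normalised count (a signal scaled between libraries by the authors), a log2 fold change and its SE, the score of the test, and the p-value before and after adjustment, for each gene. Which arm is the numerator is not named. Values per sample were not used here, which left 0 other per-sample columns, so the planned count test was replaced by the authors' adjusted p-values under 0.05, at a mean of 10 or more.

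Arm levels were computed from the mean and the fold, assuming arms of equal size. The difference between stages was set against the root of the sum of both squared SEs, tested against a normal distribution (two-sided) and adjusted by Benjamini-Hochberg with scipy 1.17.1 under Python 3.11.15, after a test on simulated data. In total 16023 of 16030 names matched the RefSeq annotation of Xenopus_laevis_v10.1. Families were defined by symbol, and 23 names matched by pattern alone were removed. The genes, lists and their divisions (25) were chosen with earlier results of these data known, and the removals and divisions after values were seen. Genes named were the 15 positive and 15 negative of lowest p with a symbol and a log2 fold change of 1 or more in size, up to 4 calls per family and direction, the gene of lowest p in a family without calls, the other copy of each, and some others, each so marked, that were picked once values were known. Some genes and families that these rules name are not reported here. Other thresholds, floors, adjustments and combined homeologs were tried as alternatives.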

Additional observations from a re-analysis of the deposited data

Results flagged for a closer look

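The response of 52 of the genes given with values here differed between stage 17 and stage 14 by a test of the difference itself, a normal test on the deposited SEs with Benjamini-Hochberg adjustment over 15790 genes (adjusted p under 0.05). Values are the log2 fold change at stage 17 minus that at stage 14, by the authors' deposited tables. They were above 0 in 51 genes and below 0 in 1. The 52 were among 171 genes given with values here that had this test. Most of the 171 were picked for low p-values at stage 17, so these counts depend in part on that choice. Over all 15790 genes the difference was called in 242 (1.53%), above 0 in 209 and below 0 in 33. A difference above 0 was not always a positive change at stage 17. The log2 fold changes at stages 17 and 14 were -1.38 and -7.31 for sox10.S, -0.92 and -3.15 for snai2.L, and -1.80 and -9.36 for atp2c2.L. The sign reversed, with a call at both stages, for msx1.S (1.10 and -1.60), msx2.L (1.05 and -1.56), fgfr4.L (1.26 and -1.01), prdm13.S (7.19 and -7.72) and ntn1.L (-2.43 and 2.18). In 11 of the 52 genes an arm was at 3 normalised counts or fewer at 1 or both stages, so the size of the difference rests on a fitted fold. They were pou5f3.2.L, tdgf1.3.L, foxd4l1.1.S, lhx5.S, fgf3.S, admp.L, hes3.L, sox10.S, atp2c2.L, phgdh.L and prdm13.S. The batch label repeats the stage, so batch and stage cannot be told apart, and the 2 stages were adjusted for multiple testing separately by the authors. Neural progenitor, pluripotency and spinal interneuron factors differed by 3.92 for sox3.L, 2.42 for sox3.S, 4.24 for sox2.L, 4.73 for pou5f3.2.L, 5.07 for pou5f3.2.S, 2.78 for pou5f3.1.S, 5.16 for pou3f2.S, 3.99 for ventx2.2.S, 4.06 for ventx2.1.S, 3.62 for sall2.S, 5.53 for foxd4l1.1.S, 3.50 for foxb1.L, 4.81 for lhx5.S and 14.91 for prdm13.S. Neural plate and border factors had differences of 3.10 for zic1.S, 2.90 for zic2.S, 1.97 for irx1.S, 1.74 for pax3.S, 2.70 for msx1.S, 2.62 for msx2.L and 2.89 for lmo4.2.S. Hox and retinoic acid genes differed by 4.50 for hoxd1.L, 4.22 for hoxd1.S, 5.38 for hoxb4.S, 3.14 for meis3.L, 2.16 for crabp2.L, 5.72 for dhrs3.L, 2.95 for cyp26a1.S and 2.49 for rara.S. Signalling genes gave differences of 4.41 for fgf8.S, 10.12 for fgf3.S, 5.48 for fgf3.L, 2.27 for fgfr4.L, 2.41 for dusp5.L, 2.55 for wnt4.L, 2.52 for wnt8a.L, 1.87 for axin2.L, 2.52 for notum.S, 5.61 for admp.L, 5.41 for tdgf1.3.L, 7.60 for hes3.L and 3.09 for hes1.L. Crest and pigment genes had differences of 5.93 for sox10.S, 2.23 for snai2.L and 1.83 for pmel.S. Genes of metabolism, adhesion, matrix and calcium handling differed by 7.56 for atp2c2.L, 5.80 for phgdh.L, 2.07 for pfkfb3.L, 3.59 for pcdh8.S and 2.86 for col4a6.L. For tmem221.L, whose role is not given here, the difference was 2.66. The difference was below 0 at -4.60 for ntn1.L, a netrin gene.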

How the results depend on the processing

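At an adjusted p threshold of 0.01 the calls at stage 17 fell from 1679 to 971 (503 positive, 468 negative) and the families with at least 20% called in 1 direction from 38 to 23. Under the other alternatives the calls lay between 1509 and 2240, the positive ones between 725 and 1083, the negative ones between 750 and 1157, and those families between 34 and 45. Over the 176 genes named, 28 calls were lost at 0.01, and 8 when homeologs were combined (il17rd.S, vangl1.S, tarbp2.S, itga6.L, aatk.L, dsg2.L, pkp3.L and nes.S). Combining them reversed aatk.S (-0.75), dsg2.S (-0.54) and pkp3.S (0.27), copies that oppose their partner. The difference between stages was called in 244 genes with a floor of 10 at both stages and in 330 at a threshold of 0.1, against 242. Homeologs had the same sign in 67.7% of pairs with no floor and 69.8% with a floor of 50, against 68.6%. No paired analysis was possible because the sample titles share no replicate numbers between arms and values per sample were not used here. Leaving out a replicate, edgeR and other size factors were not run for the same reason. The depth per library is unknown, and at low means the SE limits what could be called.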

Other observations

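Of the families not described above, or only in part, some had calls on both sides and others in 1 direction only. Their counts are to be read against 5.23% positive and 5.26% negative over all genes tested. Krüppel-like and Sp factors gave 4 positive and 2 negative calls in 28 rows, and at an adjusted p of 0.01 the negative calls outnumbered the positive ones. klf10.L, an early response factor, was at 248 normalised counts in the numerator arm and 45.7 in the denominator arm (log2 change 2.44 (adjusted p = 0.00353, SE 0.64)), while klf6.L had -1.99 (adjusted p = 5.59e-06, SE 0.37), in the authors' deposited table. Prdm factors gave 3 positive calls in 19 rows and no negative call by DESeq2, with 2 negative at an unadjusted p under 0.05. prdm13.S, a factor of spinal cord interneurons, was at least 45.2-fold higher on the numerator side (adjusted p = 7.04e-07, authors' deposited table). Grainyhead and tp63 rows gave 1 negative call in 8, Gata rows 1 in 5, T-box rows 1 in 8 and notochord and floor plate rows 1 in 9. The T-box call and the notochord call were the same row, tbxt.S. Paraxial and ventral mesoderm rows gave 5 negative and 3 positive calls in 18, and hatching and cement gland rows 3 and 1 in 13. astl.L of the latter was at least 9.53-fold higher on the numerator side (adjusted p = 0.0348, authors' deposited table), against the negative call of astl2d.1.L.

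Intermediate filaments other than keratins gave 2 positive and 2 negative calls in 14 rows. vim.L, vimentin of progenitors and mesenchyme, had a log2 change of 1.34 (adjusted p = 0.00162, SE 0.33), and nes.S, nestin, one of -1.43 (adjusted p = 0.0154, SE 0.43), in the authors' deposited table. Catenin partners gave 1 positive call in 12 rows, ctnnb1.L, the beta-catenin gene, at 0.87 (adjusted p = 0.0126) by the authors' deposited table. Apoptosis genes gave 3 positive and 1 negative calls in 47 rows. The negative call was bok.S, which was at least 33.5-fold lower on the numerator side (adjusted p = 2.34e-04, authors' deposited table). Genes of interferon, NF-kB and JAK-STAT signalling gave 3 positive and 3 negative calls in 64 rows, with the transducer stat2.L at -3.43 (adjusted p = 0.0188) by the authors' deposited table.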
